A study of Mus musculus with 22 samples.

Results

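The neuropeptide and granin precursors described here are 10 genes: Npy, Sst, Vgf, Gal, Cartpt, Scg2, Tac1, Penk, Cck and Crh. They were chosen by name, as the entries whose gene symbol is on that list, and make up 10 of the 24490 gene entries in each deposited table. RNA came from primary cortical neurons of Creb1-/- mouse embryos (E16.5, C57BL/6), used at 7 days in vitro, to which a herpes simplex virus (HSV) vector delivered CREB or a control. The groups with 8 h of expression were S40A-S133A (CREB with neither its glycosylation site nor its phosphorylation site, 2 libraries), S133A (no phosphorylation site, 2), S40A (no glycosylation site, 4), WT CREB (4) and GFP (4), and those with 4 h were S40A, WT and GFP (2 each). All of these neurons, GFP controls included, were Creb1-/- by genotype, and the labels do not say which part of the gene is deleted. All were silenced with TTX at 1 µM, which blocks sodium channels, and D-AP5 at 100 µM, which blocks NMDA receptors. All were depolarized for 2 h with 55 mM KCl. No library here is undepolarized or Creb1+/+, so the values say nothing of the response to depolarization or of the loss of CREB as such. Nothing in the labels ties a replicate to its own culture or litter, so the spread behind each p-value may be technical.

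Neuropeptides are made as precursor proteins, packed into dense-core granules with granins and cut into active peptides by convertases during transport. In cortex, somatostatin, neuropeptide Y, tachykinin, corticotropin-releasing hormone and enkephalin precursors are made chiefly by subsets of inhibitory neurons, and cholecystokinin by both inhibitory and excitatory neurons. Several of these genes, Sst foremost, are textbook CREB targets that carry a cAMP response element (CRE) close to the transcription start, and Vgf and Scg2 are activity-induced granins.

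The promoters of the members with a full CRE (TGACGTCA, which reads the same on both strands) or its core (CGTCA, or TGACG on the other strand) are shown because CREB binds these letters. RefSeq promoter windows (GRCm38.p6) were matched for 7 of the 10 members by symbol, and 250 bases before each start were searched on both strands. Vgf, Penk and Crh had no matched window and were not searched. Each line below gives the 150 bases just before the RefSeq start on the gene's own strand, 5′ to 3′, with the CRE or its core in capitals. Sst, Scg2, Cck and Cartpt lie on the minus strand and Tac1 on the plus strand.

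Sst, chr16:23890845-23890994: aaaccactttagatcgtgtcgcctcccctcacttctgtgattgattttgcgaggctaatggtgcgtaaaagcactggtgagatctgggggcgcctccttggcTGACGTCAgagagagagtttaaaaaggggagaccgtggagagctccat
Scg2, chr1:79440027-79440176: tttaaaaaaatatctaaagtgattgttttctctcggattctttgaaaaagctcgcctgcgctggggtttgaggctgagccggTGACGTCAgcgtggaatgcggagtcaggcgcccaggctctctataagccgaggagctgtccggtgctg
Cartpt, chr13:99900684-99900833: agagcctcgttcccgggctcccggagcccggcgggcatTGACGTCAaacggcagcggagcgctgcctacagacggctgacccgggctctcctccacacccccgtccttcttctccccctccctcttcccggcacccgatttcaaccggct
Cck, chr9:121495695-121495844: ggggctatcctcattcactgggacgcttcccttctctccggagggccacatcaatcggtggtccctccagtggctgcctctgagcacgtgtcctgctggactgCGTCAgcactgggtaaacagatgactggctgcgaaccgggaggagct
Tac1, chr6:7554911-7555060: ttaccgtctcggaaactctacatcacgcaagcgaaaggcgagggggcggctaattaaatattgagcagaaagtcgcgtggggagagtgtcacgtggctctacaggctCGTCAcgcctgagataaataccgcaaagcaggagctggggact

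A full CRE was found in 3 of the 7 members searched. It lay at bases -48 to -41 from the start in Sst, -68 to -61 in Scg2 and -112 to -105 in Cartpt. It occurs in 508 of 32851 mouse promoter windows of the same length, or 1.55%. Cck and Tac1 held the core without the full element, Cck at -47 to -43 and Tac1 at -43 to -39 and again at -197 to -193, and the core, with full elements counted, is in 17.8% of the windows. Npy and Gal held neither in the bases searched. The AP-1 letters TGANTCA, present in 6.75% of windows, were in none of the 7. A match is a string of letters and not a measured site.

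Levels are given as scaled FPKM, the authors' fragments per kilobase of transcript, already relative to library size, divided by a factor that brings the libraries to a common median. Differences are on the log2(scaled FPKM + 1) scale, where changes of low genes look smaller than they are, and come from limma fits over 12080 genes with Benjamini-Hochberg adjustment; a gene is called at an adjusted p under 0.05. Numbers in the deposited file names sort the libraries into sets, called runs here. The later set at 8 h holds run D2 (replicate 2 of S40A-S133A and S133A with replicate 4 of S40A, WT and GFP) and run D1 (replicate 1 of S40A-S133A and S133A with replicate 3 of S40A, WT and GFP). The earlier set at 8 h has S40A, WT and GFP alone and is split by replicate number into C2 and C1. The 4 h libraries numbered 2 are run B and those numbered 1 run A. What distinguishes the runs in the laboratory is not stated in the labels.

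The libraries held neurons by their markers, and markers of glia and progenitors were present too. Tubb3 ran from 253 to 491 scaled FPKM over the 22 libraries and all 6 pan-neuronal markers passed the filter on low values. So did all 8 markers of astrocytes and radial glia, 6 of 7 of the oligodendrocyte lineage and all 5 of dividing progenitors. Only 1 of 6 microglial and 1 of 6 vascular markers passed. Astrocyte and radial glia markers summed to between 93.6 (S40A replicate 3 at 8 h) and 867 (S40A replicate 1 at 4 h). Pan-neuronal sums in these libraries were 1964 and 1287. Creb1 RNA was 567 to 2306 in the CREB libraries at 8 h and 9.56 to 14.9 in their GFP libraries, and 234 to 268 in the CREB libraries at 4 h against 11.8 and 15.7 with GFP. In run A, 13.9% to 14.9% of entries had an FPKM outside their own deposited interval, against 0 in the other 19 libraries. GFP replicate 2 at 8 h stood apart from the other 8 h libraries, with Gapdh at 130.2 against at most 1.59 elsewhere at 8 h. Its closest library over all genes was GFP replicate 1 at 4 h, of run A (correlation 0.86). The reason for these Gapdh values was not tested, and the library was kept in the 8 h fits.

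The 10 precursors were all detected, with a level above 0 in all 22 libraries, and all passed the filter on low values. Per length, Sst had the highest mean level and Gal the lowest. Sst, the somatostatin precursor (chr16:23889581-23890844, mm10), averaged 177 scaled FPKM over the 22 libraries, and Vgf (chr5:137030295-137033351) averaged 82.5. Scg2, secretogranin II (chr1:79434669-79440090), averaged 61.0 and Npy (chr6:49822729-49829505) 36.4. Sst exceeded Vgf in 22 of 22 libraries, Vgf exceeded Scg2 in 19 and Scg2 exceeded Npy in 21, although the ranges of each pair over libraries overlapped.

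The lower part of the order was less settled. Cck, the cholecystokinin precursor (chr9:121489824-121495694), averaged 26.0 and lay below Npy in 13 of 22 libraries. Cartpt, the precursor of the CART satiety peptides (chr13:99898483-99900683), averaged 17.1, and Tac1, the substance P and neurokinin A precursor (chr6:7555071-7562973), averaged 12.5; Cartpt was above Tac1 in 13 of 22. Neighbours at this height changed places between libraries. Penk, the enkephalin precursor (chr4:4133536-4138445), averaged 2.37, Crh, corticotropin-releasing hormone (chr3:19693401-19695396), 2.04 and Gal, the galanin precursor (chr19:3409917-3414457), 1.42. Penk was above Crh in 12 of 22 libraries and Crh above Gal in 14, so these neighbours do not differ beyond their spread. No total counts were used here, but the width of the authors' FPKM intervals implies as few as 2 fragments for Crh and 1 for Gal in their lowest libraries, against at least 851 for Sst, 847 for Scg2 and 2721 for Vgf.

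**Figure D1:**
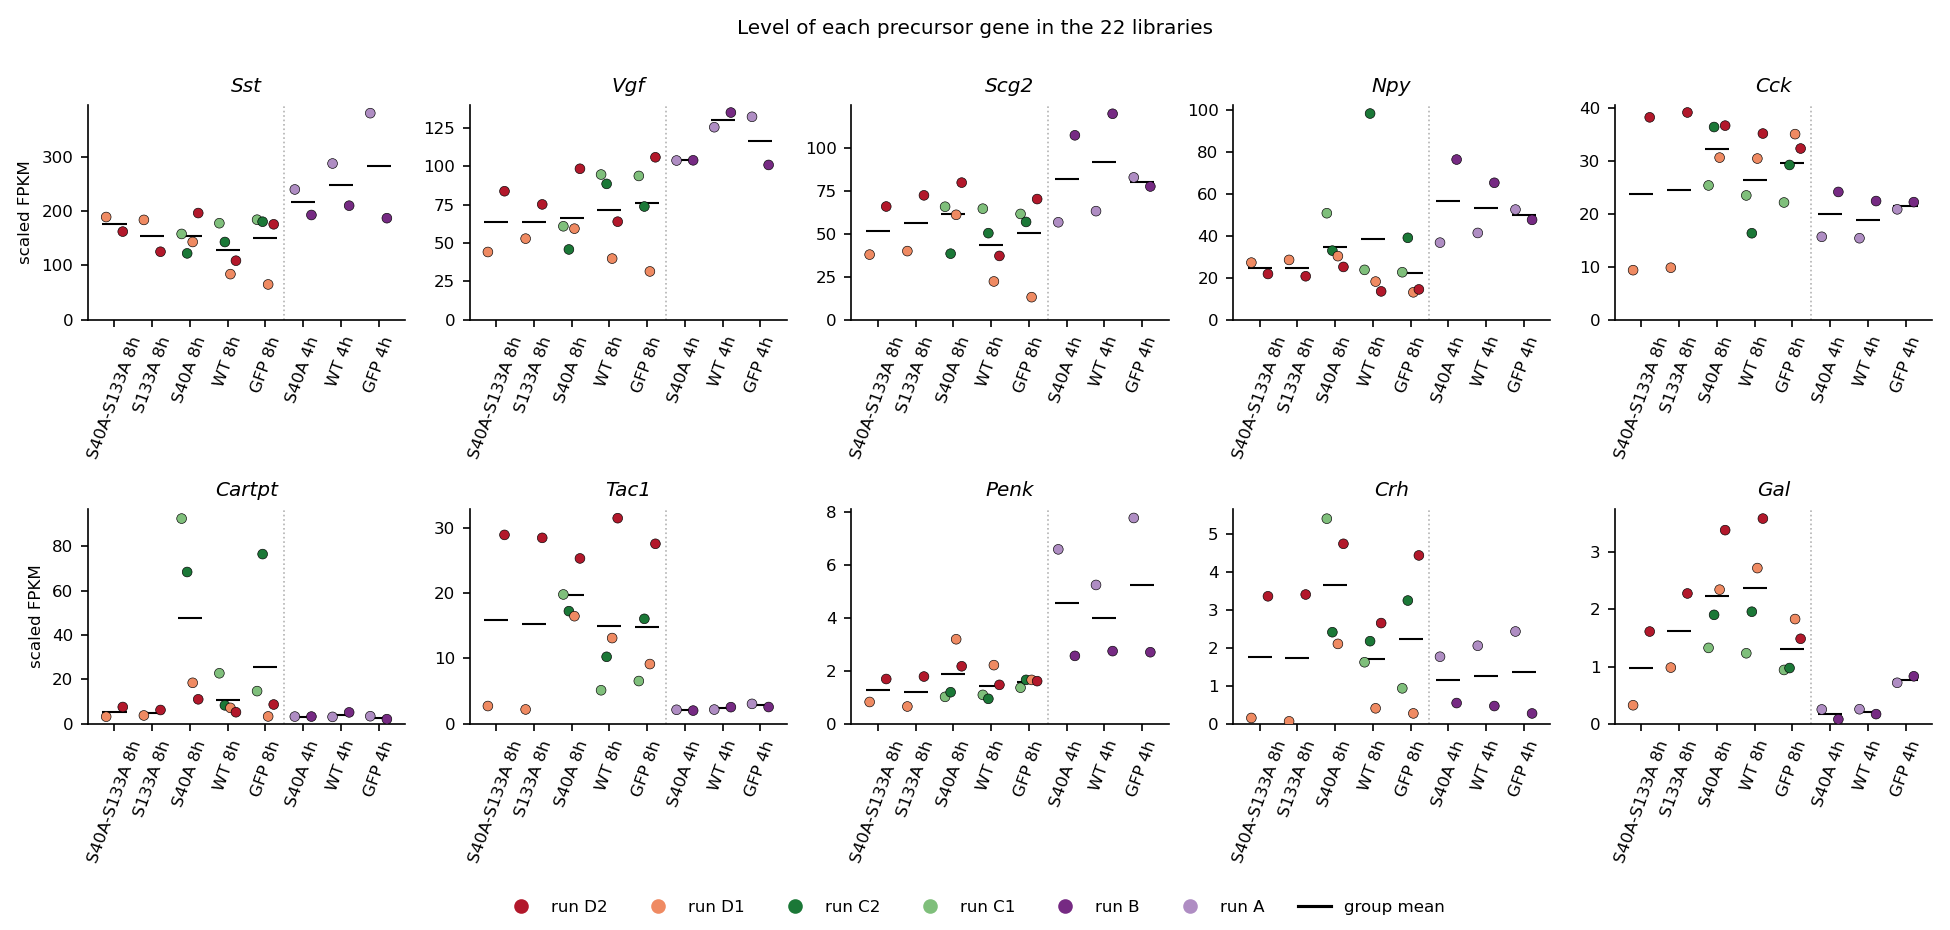
Level of each precursor gene in the 22 libraries, in scaled FPKM on linear axes that start at 0; each dot is 1 library coloured by run, black bars are group means, and the dotted line parts 8 h from 4 h. Dots of 1 colour often lie together whatever the virus, as for Tac1, which was 25.3 to 31.5 in the 5 libraries of run D2.

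The spread differed between members. On the deposited values Vgf and Cck varied least over the 22 libraries, with highest over lowest ratios of 4.29 and 4.18, and Sst followed at 5.85. The highest Sst value, 380 in GFP replicate 1 at 4 h, is from run A. There Sst was deposited at 1.48 to 1.49 times the middle of its own interval. At that middle this library had 261, so the place of Sst behind Vgf and Cck rests on the deposited value. Crh varied most, from 0.0618 to 5.41 scaled FPKM, an 87.6-fold range, followed by Gal at 47.0-fold and Cartpt at 45.2-fold. The range for Crh and Gal rests on the few fragments of their lowest libraries, whereas the lowest Cartpt value still had about 28.5 implied fragments.

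Adding CREB back did not give a called change in any of the 10 precursors. At 8 h, 0 of 10 were called by limma for S40A-S133A against GFP (background 0.0166% of 12080 genes), S133A against GFP (0.0248%), S40A against GFP (0.00828%) and WT against GFP (0.00828%). The same held for any CREB form against GFP (0.0248%). At an unadjusted p under 0.05, 0 members stood out for S40A-S133A (3.49% of genes), 0 for S133A (2.38%), 1 for S40A (Cartpt, 5.89%), 1 for WT (Gal, 1.07%) and 0 for any CREB form (5.12%). These backgrounds hold 1 to 3 called genes each, so 0 of 10 is what nearly all other genes gave too.

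Over both 8 h sets, differences between the forms were likewise without a call. For S40A against WT, 0 of 10 members and 0% of 12080 genes were called by limma, with 1 member (Cartpt) and 497 genes (4.11%) at an unadjusted p under 0.05. For S40A-S133A it was 0 of 10 against S133A (0.0248%), against S40A (0.00828%) and against WT (0.00828%), and for S133A 0 of 10 against WT (0.0166%). The members at an unadjusted p under 0.05 were 0 for S40A-S133A against S133A (0.348% of genes), 2 against S40A (Gal and Cartpt, 2.04%) and 1 against WT (Gal, 1.58%), and 1 for S133A against WT (Gal, 1.39%). The test of whether removing the glycosylation site acts differently with and without the phosphorylation site called 0 of 10 (0.0248%), with 0 at an unadjusted p under 0.05 (0.646%). Standard errors in these fits ran from 0.20 to 1.32 on the log2 scale, the largest for Tac1, whose S40A minus WT difference was 0.62 (95% interval -1.05 to 2.28).

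Cartpt, which carries a full CRE, had the largest difference between CREB forms that were each in 4 libraries. At 8 h it had 3.16 and 7.51 in the S40A-S133A libraries, 3.71 and 6.17 in S133A, 92.4, 68.3, 18.4 and 10.98 in S40A, 22.7, 8.27, 7.12 and 5.17 in WT and 14.7, 76.4, 3.27 and 8.64 in GFP, in replicate order. The 2 highest S40A libraries and GFP replicate 2 stood far above the rest, and the S40A, WT and GFP ranges overlapped. S40A averaged 47.5 ± 39.3 scaled FPKM, WT 10.8 ± 8.04 and GFP 25.7 ± 34.1 (SD, n = 4 each). S40A minus WT was 1.77 (95% interval 0.61 to 2.94) in log2, with an unadjusted p of 0.0062 and a limma adjusted p of 1. Within runs Cartpt was higher with S40A than with WT in 4 of 4, by 0.96 in D2, 1.26 in D1, 2.90 in C2 and 1.98 in C1. Against GFP, S40A was higher in 3 of 4 runs. That count depends on the split of the earlier set by replicate number, which was not taken as a pairing. There S40A had 92.4 and 68.3 and GFP 14.7 and 76.4. The difference of S40A against GFP was 1.23 (95% interval 0.07 to 2.39), with a limma adjusted p of 0.84. Without GFP replicate 2, the library that stands apart, it was 1.75 with an adjusted p of 0.66. With the phosphorylation site removed as well, the S40A-S133A libraries had the low Cartpt levels given above, and S40A-S133A minus S40A was -1.57 (95% interval -3.08 to -0.07), adjusted p 1.

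**Figure D2:**
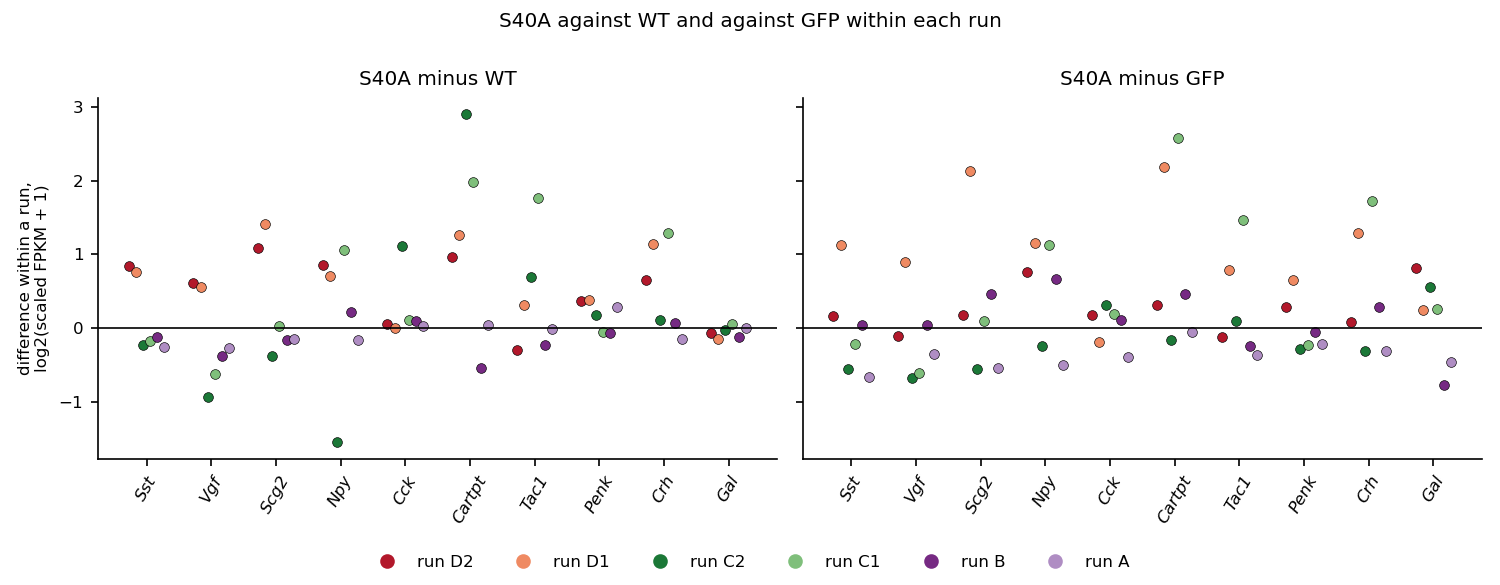
Difference of S40A minus WT (left) and S40A minus GFP (right) within each run, in log2(scaled FPKM + 1), with 1 dot per run and gene and a line at 0. Cartpt lies above 0 for S40A minus WT in all 4 runs at 8 h, and at -0.53 in run B and 0.05 in run A at 4 h.

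Npy differed most between WT libraries. At 8 h it had 27.2 and 21.8 in the S40A-S133A libraries, 28.5 and 20.7 in S133A, 50.8, 32.9, 30.3 and 25.2 in S40A, 23.8, 98.3, 18.2 and 13.5 in WT and 22.6, 39.0, 13.1 and 14.5 in GFP. WT replicate 2 was the highest of all 22 libraries, and the other 3 WT libraries lay within the GFP range. S40A averaged 34.8 ± 11.1, WT 38.4 ± 40.1 and GFP 22.3 ± 11.9 (SD, n = 4 each). Any CREB form minus GFP was 0.67 (95% interval -0.03 to 1.37), limma adjusted p 0.83. WT minus GFP was 0.43, and -0.04 without WT replicate 2, neither of them called. In that library the inhibitory marker Gad1 was 100.8, the highest at 8 h, and the excitatory marker Slc17a7 18.5, the lowest of all 22; their part in the Npy value was not tested. With bulk RNA, more cells of a type and more RNA per cell cannot be told apart.

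Gal, a low gene, gave the smallest unadjusted p in several comparisons. At 8 h it had 0.323 and 1.61 in the S40A-S133A libraries, 0.981 and 2.28 in S133A, 1.33, 1.90, 2.34 and 3.39 in S40A, 1.23, 1.96, 2.72 and 3.59 in WT and 0.940, 0.974, 1.83 and 1.49 in GFP. S40A-S133A lay below WT except that its replicate 2 exceeded WT replicate 1, and GFP overlapped WT through WT replicate 1 alone. WT minus GFP was 0.52 (95% interval 0.04 to 0.99) with an unadjusted p of 0.036, and S40A-S133A minus WT was -1.09 (95% interval -1.71 to -0.47) with an unadjusted p of 0.0024; the limma adjusted p was 1 for both. At 4 h Gal had 0.249 and 0.0763 in S40A, 0.253 and 0.167 in WT and 0.716 and 0.830 in GFP. There both CREB viruses lay below GFP, S40A by a difference of -0.61 and WT by -0.55, with unadjusted p 0.0025 and 0.0038 and limma adjusted p 1 for each. The implied fragments were 7 and 1 in S40A, 7 and 2 in WT and 9 and 10 in GFP.

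At 4 h no precursor was called either. Of 10 members, 0 passed for S40A against WT (background 0.0911%), S40A against GFP (0.0911%) and WT against GFP (0.0993%) by limma, with 0 (0.315% of genes), 1 (Gal, 0.488%) and 1 (Gal, 0.348%) at an unadjusted p under 0.05. These shares are from the fit without pairing. With the replicate number as a block, which pairs the libraries at 4 h, it was again 0 of 10 in each. There 7 genes in place of 11 were called for S40A against WT. At an unadjusted p under 0.05 the block gave 185 genes in place of 38 for S40A against WT. It gave 358 in place of 59 for S40A against GFP and 278 in place of 42 for WT against GFP. The effect of S40A against GFP at 8 h minus that at 4 h (0.00828%) and the like difference for WT (0.0166%) had 0 of 10 called. Gal was the member at an unadjusted p under 0.05 in both, with values of 1.08 (1.21% of genes) and 1.07 (0.563%).

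In the later set at 8 h, Cck, Tac1, Penk and Gal were lower without the phosphorylation site in run D1, and no precursor was called in run D2. This contrast was made after the data were seen: the 2 libraries without the phosphorylation site (S40A-S133A and S133A) against the 2 with it (S40A and WT), in each run of the later set. In run D1, 4 of 10 precursors were lower and 0 higher, against 8.39% of all genes called and 5.23% called lower. In run D2, 0 of 10 were called by limma (0.0745%), with 2 (Gal, lower, and Cck, higher) at an unadjusted p under 0.05 (3.92% of genes). The fit had 4 residual degrees of freedom. Its spread is that between the 2 viruses put together within a run, and not that between repeat libraries of a virus.

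Cck, with a CRE core, had 9.38 scaled FPKM in S40A-S133A and 9.84 in S133A in run D1, against 30.7 in S40A, 30.5 in WT and 35.1 in GFP. In run D2 it had 38.3 in S40A-S133A and 39.2 in S133A, against 36.7 in S40A, 35.2 in WT and 32.4 in GFP. The 2 low libraries were the lowest of all 22 for Cck, while their counterparts in run D2 were the highest. The difference was -1.57 (95% interval -1.67 to -1.48) in run D1 (limma adjusted p 8.1e-05) and 0.10 (95% interval 0.01 to 0.20) in run D2 (adjusted p 0.91). The effect in D1 minus that in D2 was -1.68 (95% interval -1.82 to -1.54), adjusted p 0.00031.

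Tac1 followed the same pattern. In run D1 it had 2.70 in S40A-S133A and 2.18 in S133A, against 16.47 in S40A, 13.1 in WT and 9.13 in GFP, and in run D2 28.9 in S40A-S133A and 28.5 in S133A, against 25.3 in S40A, 31.5 in WT and 27.5 in GFP. The low pair lay at the level of the 4 h libraries. The difference was -2.19 (95% interval -2.58 to -1.81) in run D1 (adjusted p 0.0027) and 0.02 (95% interval -0.36 to 0.41) in run D2 (adjusted p 1), and D1 minus D2 was -2.22 (95% interval -2.76 to -1.67), adjusted p 0.013. That call was lost without S133A replicate 1, S133A replicate 2 or S40A-S133A replicate 2, with adjusted p 0.061, 0.073 and 0.069. For D1 minus D2, 2 of 10 members were called, both lower, against 2.32% of all genes called and 1.89% called lower.

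Penk and Gal were called in run D1 with less margin. Penk had 0.821 in S40A-S133A and 0.651 in S133A, against 3.20 in S40A, 2.22 in WT and 1.66 in GFP, a difference of -1.08 (95% interval -1.51 to -0.65) (adjusted p 0.025). Gal had 0.323 in S40A-S133A and 0.981 in S133A, against 2.34 in S40A, 2.72 in WT and 1.83 in GFP, a difference of -1.12 (95% interval -1.66 to -0.58) (adjusted p 0.0395). In run D1 both genes were lowest in the libraries without the phosphorylation site. Gal was also lower without the site in run D2, without a call. There it had 1.61 in S40A-S133A and 2.28 in S133A, against 3.39 in S40A, 3.59 in WT and 1.49 in GFP. Their D1 minus D2 tests were not called, and both calls were lost without S40A replicate 3, S133A replicate 2 or either S40A-S133A library; Penk also lost its call without S133A replicate 1, and Gal without WT replicate 3 or 4 or S40A replicate 4. Crh in the same libraries was at 0.151 and 0.0618, against 2.11 in S40A, 0.406 in WT and 0.272 in GFP, without a call (adjusted p 0.24), on 5 and 2 implied fragments. The granins Vgf and Scg2 had differences of -0.01 and 0.07, and Sst and Npy 0.76 and 0.24, none called.

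The members that were low in that pair of libraries were accompanied by neuron genes outside the list. Slc17a7, the vesicular glutamate transporter of excitatory neurons, was 30.0 in S40A-S133A and 31.2 in S133A in run D1, against 63.5 to 91.8 in the other 8 libraries of the later set. It was called lower in D1 with a difference of -1.50 (adjusted p 0.000296), and D1 minus D2 was -1.69 (adjusted p 0.0011). Camk2a (-0.79) was called lower too, and in total 3 of the 10 excitatory markers were called lower and 0 higher. Over that list 6 of 10 differences were above 0, with a median of 0.08 against 0.02 over all genes. Of 13 inhibitory markers Reln (0.54) and Htr3a (0.26) were called higher and 0 lower, and of 8 markers of astrocytes and radial glia Vim (1.17) was called higher, with 8 of 8 above 0 and a median of 0.67. Summed over the 10 excitatory markers, levels ran from 409 to 506 over run D1 and 416 to 477 over run D2. Over all 14 inhibitory markers listed, tested or not, they ran from 366 to 458 in run D1 and 429 to 597 in run D2. Low Slc17a7 was also found in the earlier set, at 38.5 in GFP replicate 1, 41.9 in WT replicate 1 and 18.5 in WT replicate 2, and there Cck was 22.2, 23.5 and 16.4 and Tac1 6.53, 5.12 and 10.2, in the same order, below the other 8 h libraries of runs C1, C2 and D2. In run D1, GFP replicate 3 had Tac1 at 9.13 with Slc17a7 at 83.8. The part of neuron composition or maturity in the run D1 result was not tested. S133A and S40A-S133A of run D1 were each other's closest library over all genes, as were their counterparts in run D2.

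**Figure D3:**
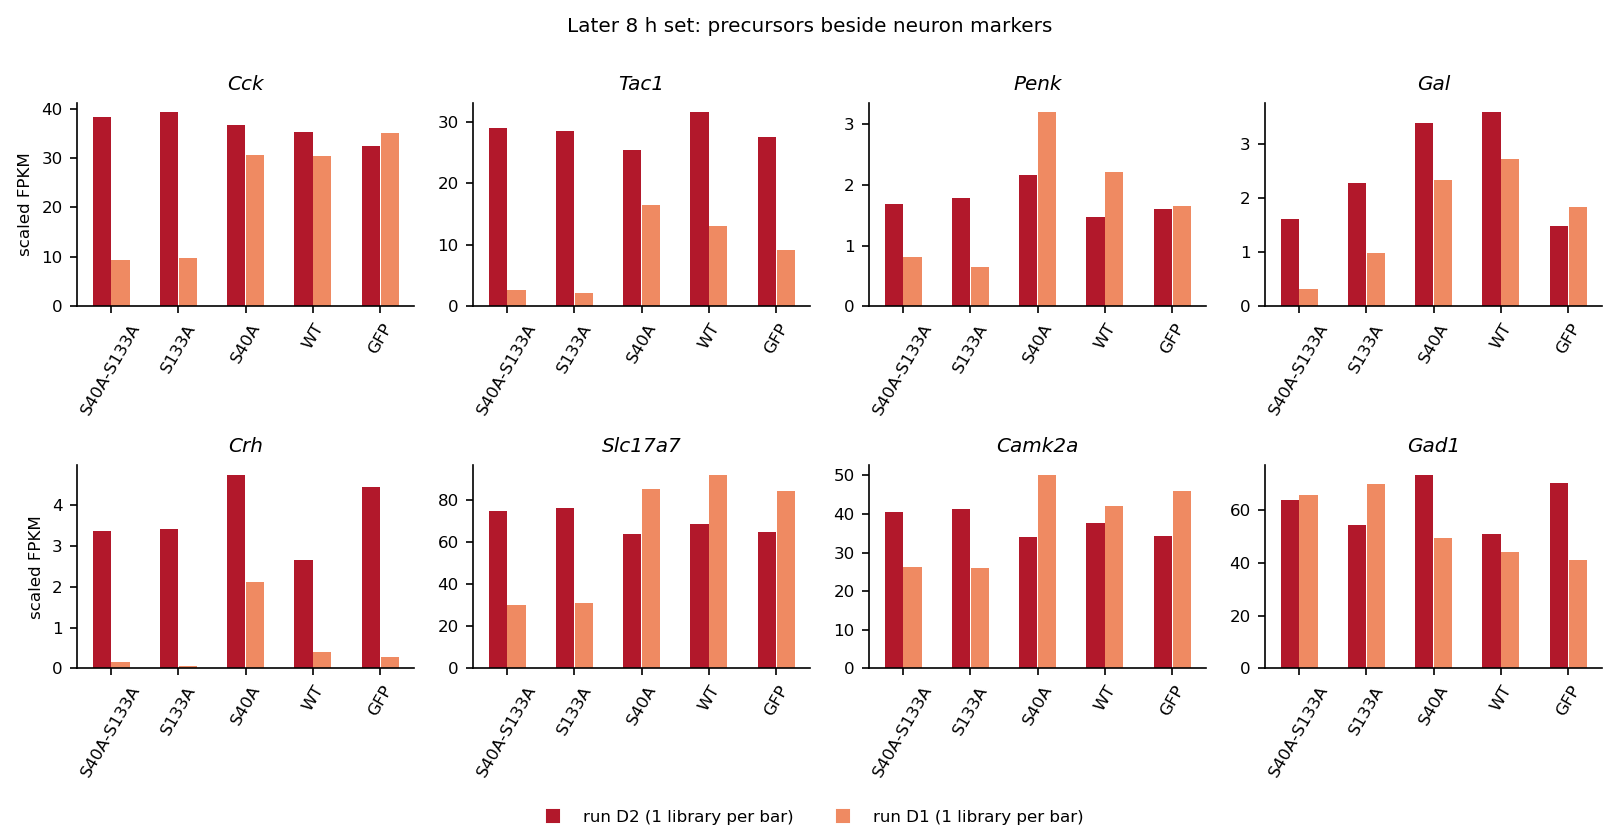
Scaled FPKM of 5 precursors and 3 neuron markers in the later 8 h set, 1 library per bar, with run D2 in red and run D1 in orange; axes start at 0. Cck, Tac1 and Slc17a7 are low in the run D1 libraries of S40A-S133A and S133A and not in their run D2 counterparts.

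Among the genes of the same pathway, the lists chosen alongside the members were also tested in that contrast. Of 13 granule proteins tested, 4 were called lower and 0 higher in run D1: Ptprn (-1.23) and Ptprn2 (-0.20), transmembrane proteins of the granule, Resp18 (-1.24) and Pcsk1n (-0.58), an inhibitor of convertase 1. Of 13 receptors tested, 4 were called lower: the somatostatin receptors Sstr1 (-1.75) and Sstr4 (-1.33), the cholecystokinin receptor Cckbr (-0.73) and the opioid receptor Oprd1 (-0.53). Of 14 other precursors tested, Grp, gastrin-releasing peptide, was lower (-1.88) and Pthlh higher (0.67). Of 15 processing enzymes, Ece1 was lower (-0.43) and Pcsk5 higher (0.35). For D1 minus D2, Ptprn (-1.25), Sstr4 (-1.37), Sstr1 (-1.999), Grp (-2.02) and Pthlh (1.06) were called, and in run D2 alone 0 genes of these lists were. In run D1 the medians were -0.13 for granule proteins, -0.31 for receptors, 0.02 for other precursors and -0.08 for enzymes, beside 0.02 over all genes and -1.001 over the 10 precursors.

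Precursors also differed between the runs. Over the 5 viruses of the later set, run D2 against run D1 called Crh, Vgf and Tac1 higher and none lower, 3 of 10, against 30.3% of all genes called and 13.3% called higher; the share for the precursors is that of the background. Crh differed by 1.67 (95% interval 1.16 to 2.18) (limma adjusted p 0.0067), Vgf by 0.90 (95% interval 0.44 to 1.37) (adjusted p 0.022) and Tac1 by 1.90 (95% interval 0.78 to 3.02) (adjusted p 0.030). Scg2 just missed, at 1.01 (95% interval 0.27 to 1.75) (adjusted p 0.052). All 4 were higher in run D2 for 5 of 5 viruses. The calls for Vgf and Tac1 depended on single libraries: 1 precursor, Crh, was left without either WT or either S40A-S133A library, and 5 were called without either GFP library.

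Vgf had 83.8 in S40A-S133A, 75.2 in S133A, 98.5 in S40A, 64.0 in WT and 106 in GFP in run D2, against 44.2, 52.9, 59.4, 39.9 and 31.5 in run D1 for the same viruses in that order. Scg2 had 65.8, 72.3, 79.7, 37.1 and 70.1 in run D2, against 37.8, 39.9, 61.0, 22.2 and 13.1 in run D1. The gap was widest with GFP, at 3.36-fold for Vgf and 5.34-fold for Scg2. Crh had 3.36, 3.41, 4.75, 2.66 and 4.44 in run D2, against 0.151, 0.0618, 2.11, 0.406 and 0.272 in run D1. The runs did not overlap for Vgf, Crh and Tac1, 3 of 10 members against 23% of all genes, and overlapped for Scg2 through WT of run D2 and 3 libraries of run D1.

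Genes induced by depolarization were higher in run D2 as well, with 8 of 9 called higher and 0 lower, among them Nr4a1 (1.35), Arc (1.34), Atf3 (1.38) and Bdnf (1.91). Their summed level was 1615 to 2666 scaled FPKM in run D2 and 799.8 to 1765 in run D1. Pcsk1, the convertase that cuts many of these precursors, was 18.0 to 35.2 in run D2 and 1.74 to 10.7 in run D1 (2.49, adjusted p 0.0072). Adcyap1, the PACAP precursor, was 13.4 to 37.8 and 2.48 to 12.5 (2.22, adjusted p 0.0094). Of the 14 other precursors tested, 6 were called higher and 0 lower, namely Adcyap1, Avp (0.96), Prok2 (0.58), Nppc (0.62), Nmb (0.74) and Adm (1.12). Of the 15 enzymes, 6 were higher and 3 lower, with Ece1 (0.59), Ece2 (0.77) and Cpd (0.19) higher beside Pcsk1, and Pcsk2 (-0.28) and Pcsk7 (-0.41) lower. Of the 13 granule proteins, 0 were higher and Scg3 (-0.34) and Ica1 (-0.25) lower. Of the 13 receptors, Sstr2 (1.28) and Galr2 (0.41) were higher, and Oprl1 (-0.73), Npy1r (-0.59) and Ntsr1 (-0.45) lower. Of the 13 inhibitory markers 5 were higher and 1 lower, and of the 10 excitatory markers 0 were higher and 1 lower. Creb1 RNA was higher in run D2 for 4 of 5 viruses, with a median ratio of 3.17 over the 5 and a ratio of 0.752 with GFP. The part of each of these in the precursor levels was not tested.

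**Figure D4:**
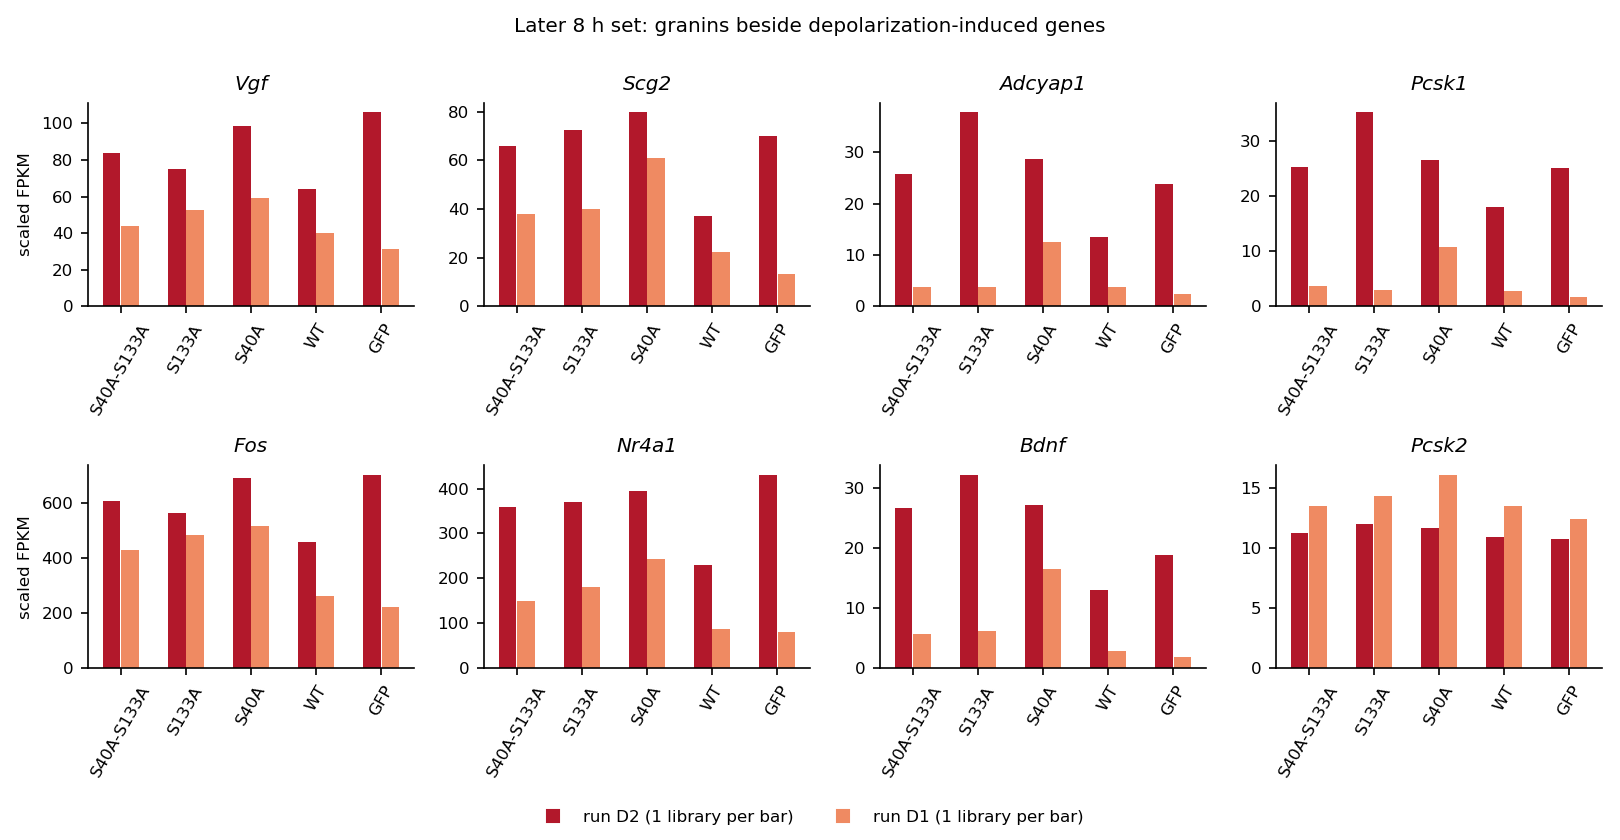
Scaled FPKM of the granin precursors Vgf and Scg2, the PACAP precursor Adcyap1, the convertases Pcsk1 and Pcsk2 and the depolarization-induced genes Fos, Nr4a1 and Bdnf in the later 8 h set, 1 library per bar, with run D2 in red and run D1 in orange; axes start at 0. Run D2 is higher for every virus except for Pcsk2, which is lower.

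At 4 h, run B against run A called Crh and Penk lower and 0 higher, 2 of 10, against 40.8% of all genes called and 20.8% called lower. Penk had 2.57 in S40A, 2.75 in WT and 2.71 in GFP in run B, against 6.60, 5.25 and 7.79 in run A for the same viruses. Crh had 0.545, 0.466 and 0.270 in run B, against 1.77, 2.06 and 2.43 in run A. On the deposited values neither gene overlapped between the runs, nor did Sst and Cck, 4 of 10 members against 63.8% of all genes. The differences were -1.03 (95% interval -1.41 to -0.64) for Penk (limma adjusted p 0.015) and -1.11 (95% interval -1.51 to -0.72) for Crh (adjusted p 0.014), with 2 residual degrees of freedom. Both calls were lost without any 1 of the WT or S40A libraries, and 6 precursors were called without either GFP library.

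The depolarization-induced genes moved the other way from Penk and Crh at 4 h, with 9 of 9 called higher in run B and a summed level of 3034 to 3460 against 570.0 to 1174 in run A. Of 5 markers of dividing progenitors, Ccnb1 (-2.51), Top2a (-1.36) and Eomes (-1.03) were called lower in run B, as Penk and Crh were, and the list summed to 22.9 to 25.8 in run B and 41.4 to 93.2 in run A. Of 13 inhibitory markers tested 5 were called higher and 0 lower, and of 10 excitatory markers 5 higher and 2 lower. Over all 14 inhibitory markers listed, sums were 573 to 669.9 in run B and 453 to 527 in run A. The part of these in the precursor levels was not tested. Of the 15 enzymes, 4 were called higher in run B and 3 lower, with Pcsk1 (1.80) and Pcsk2 (0.83) higher. Of the 13 granule proteins, the synaptotagmin Syt4 (1.95), Pcsk1n (0.84) and Scg5 (0.48) were higher, and Resp18 (-1.41) and the granin Chgb (-1.27) lower. Of the 14 other precursors, Grp (1.29) and Cort (0.36) were higher and Pthlh (-1.38) and Nppc (-0.29) lower, and of the 13 receptors 5 were higher, among them Npy1r (1.14), and 3 lower: Cckbr (-1.51), Crhr1 (-0.999) and Tacr3 (-0.76). Run A values carry a limit of their own. In run A, Npy was deposited at 1.51 to 1.53 times the middle of its own interval and Sst at 1.48 to 1.49 times, whereas in the other runs members lay at 1.00 times. With the interval middle in place of the deposited value, Npy in run A was 25.1 in S40A, 27.8 in WT and 35.2 in GFP. Run B against run A was then 1.06 for Npy (limma adjusted p 0.042) in place of 0.51, and -0.07 for Sst in place of -0.60. Sst in run A was 166 in S40A, 199 in WT and 261 in GFP at the middles, which overlaps the 187 to 210 of run B. Npy, at 47.6 to 76.4 in run B, overlapped on the deposited values and did not at the middles.

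In the earlier 8 h set, run C2 against run C1 called 0 of 10 precursors (0.0331% of all genes) by limma, with 0 members and 460 genes (3.81%) at an unadjusted p under 0.05. The 2 replicate numbers of that set hold levels of Cartpt from 8.27 to 92.4, so the spread there lay within the runs.

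**Figure D5:**
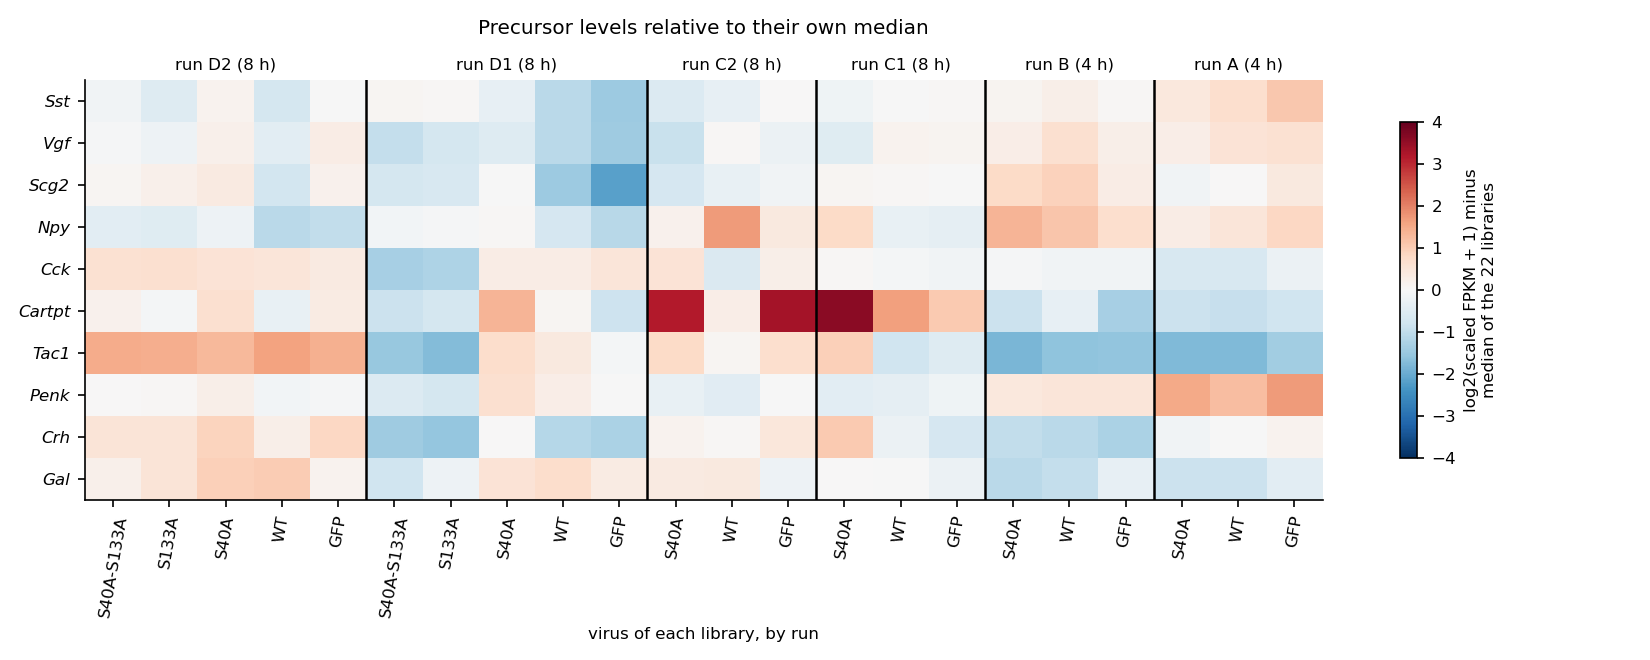
Level of each precursor in each library as log2(scaled FPKM + 1) minus that gene's median over the 22 libraries, with libraries grouped by run; red is above and blue below the median. Crh and Tac1 are above their medians in all of run D2 and Penk in all of runs A and B, and Cartpt is far above its median in 3 libraries of runs C1 and C2.

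Gal and Tac1 were the members whose levels at 8 h and 4 h did not overlap. Over GFP, WT and S40A, Tac1 was 5.12 to 31.5 in the 12 libraries at 8 h (median 16.3) and 2.01 to 3.03 in the 6 at 4 h (median 2.35). Gal was 0.940 to 3.59 at 8 h (median 1.87) and 0.0763 to 0.830 at 4 h (median 0.251). Both were higher at 8 h. These are 2 of 10 members, against 13.6% of all genes with ranges apart and 7.58% apart and higher at 8 h. The 8 h and 4 h libraries come from different runs, so time and run cannot be told apart. Markers of dividing progenitors moved with the time as well, with a summed level of 5.55 to 13.4 scaled FPKM in the same libraries at 8 h and 22.9 to 93.2 at 4 h, which do not overlap. Those of astrocytes and radial glia summed to 93.6 to 282 at 8 h and 275 to 867 at 4 h, and Slc17a7 was 18.5 to 91.8 at 8 h and 19.4 to 31.2 at 4 h. The part of composition in these values was not tested.

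Across the rest of the pathway, no listed gene was called in the comparisons of viruses over whole groups at 8 h or 4 h, those within run D1 apart: 0 of 14 other precursors, 0 of 13 granule proteins, 0 of 15 enzymes and 0 of 13 receptors by limma. Of the 31 other precursors listed, 17 stayed under the filter, among them Vip, Pdyn and Pomc, and of the 27 receptors 14, with Galr3 at 0 in all libraries. For S40A against WT at 8 h, differences were above 0 in 13 of 13 granule proteins (median 0.19) and in 11 of 13 receptors (median 0.15), with the largest for Cckbr (0.90), against 8 of 10 members (median 0.31) and a median of 0.00 over all genes. None of these was called, and the genes of a list are not independent of each other.

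The genes most like each precursor were taken by Pearson's r of log2 levels over the 22 libraries, among 8082 genes with a mean of at least 5 scaled FPKM; Penk, Crh and Gal are below that mean. Npy was most like Wls (r = 0.96), Reln (0.89) and Dcaf11 (0.86), and Sst most like Pkp4 (0.93), Pou6f1 (0.89) and Eif3h (0.89). Vgf was most like Nab1 (0.93), Selk (0.93) and Eif5a (0.92), and Scg2 most like Nrn1 (0.90), Rgag4 (0.89) and Pnn (0.89). Cck was most like Hpca (0.87), Stambpl1 (0.86) and Tmem191c (0.85), Tac1 most like Tuba4a (0.96), Slc4a10 (0.94) and Mafa (0.94), and Cartpt most like Ramp3 (0.89), Rasl10b (0.86) and Tmem151b (0.85). Without the 2 libraries farthest from the precursor's own mean log2 level these values stayed at 0.68 or above, with the lowest for Tmem151b.

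Over the 16 libraries at 8 h alone, all 3 genes of Cartpt were among the 3 closest again, and 1 each for Npy (Wls) and Tac1 (Tuba4a), and 0 for the other members. There Vgf was most like Srf (0.97), Nfil3 (0.96) and Gltscr2 (0.96), and Scg2 most like the immediate early genes Jun (0.94), Egr2 (0.93) and Fos (0.93). Cck was most like Tmem179 (0.98), Nrgn (0.97) and Syt13 (0.93). Libraries of 1 run share their level of many genes, so these values describe libraries and not separate replicates of a relation.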

How the data were processed

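RNA-seq tables of 22 libraries were used. The authors deposited FPKM values with a confidence interval for each of 24490 gene entries per library, relative to transcript length and to library size. CASAVA 1.7, Bowtie 0.12.2, Cufflinks and the builds mm8 and mm10 are named, without their roles, per the submitters' processing notes; the deposited starts of Sst, Cck and Cartpt equal those of RefSeq on GRCm38 (mm10). Total counts per library were not used here, so depth is known only from the fragments that the intervals imply, which cover counting error alone. The assignment of shared reads and the use of strand are not given in the sources used here.

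FPKM values were scaled by median-of-ratios factors, 1 FPKM was added and log2 was taken. A mean of 1 FPKM or more was reached by 12101 genes, and 12080 were tested after 21 with a failed estimate were left out. limma 3.58.1 (R 4.3.3) with a mean-variance trend was fitted over all genes, with two-sided moderated tests and Benjamini-Hochberg adjustment. The 8 h fit held the virus and the set (10 residual degrees of freedom), the 4 h fit the virus (3), the joint fit of both times 13, and the fits of runs the virus and the run (2 at 4 h and in the earlier set, 4 in the later set). The 8 h fit was tested on simulated data for WT against GFP, with independent noise in each library. Libraries of a run share no deviation there, so that test does not cover differences between runs. Same-numbered libraries at 4 h deviated together (correlations 0.54 to 0.56 over 3 pairs of groups), so their numbers pair them. The 4 h p-values and shares given are from the fit without that pairing, except where the block is named. At 8 h, 16 of 26 pairs were over 0.1, and the numbers were not taken as pairs. No 2 libraries held identical values. Python 3.11.15 with numpy 2.4.6, pandas 2.3.3 and matplotlib 3.10.9 was used for the rest. Promoters were RefSeq windows.

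The members, gene lists and alternatives were chosen with earlier results of these data known; the contrast on loss of the phosphorylation site within runs was added after seeing these data. All members were described. Of each pathway list, the genes called were named, at most 6 a comparison, or the one with the smallest p; the likeness rule was the 3 genes with the highest r over 22 libraries among those with a mean of at least 5 FPKM. The cell type markers and Nr4a1, Arc, Atf3, Fos and Bdnf were named beside results that they move with; 1 marker is counted but its values are not reported here.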

Additional observations from a re-analysis of the deposited data

Results flagged for a closer look

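Of the 30 combinations of a precursor and a group of 4 libraries at 8 h, 4 had a library far from the other 3; chance flags about 1 in 20 groups. Npy was 98.3 scaled FPKM in WT replicate 2, against 13.5 to 23.8 in the other WT libraries. Cartpt was 76.4 in GFP replicate 2, against 3.27 to 14.7 in the other GFP libraries, and this is the library with high Gapdh. Sst was 64.9 in GFP replicate 3, against 175 to 184 in the others. Vgf and Scg2 were at their lowest of all 22 libraries there as well, at 31.5 and 13.1. Penk was 1.36 in GFP replicate 1, against 1.61 to 1.66 in the others, a small gap in a narrow group.

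The effect of losing the phosphorylation site differed between the runs of the later set for Tac1, by -2.22 for run D1 minus run D2 (limma adjusted p 0.0132), and for Cck, by -1.68 (adjusted p 0.000312). The direction was lower in run D1 for both. This contrast was made after the data were seen, so these p-values come from the values that prompted it. Their spread is that between different viruses of a run.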

How the results depend on the processing

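In the comparisons of viruses over whole groups, those within runs D1 and D2 apart, 0 precursors were called under all alternatives run, over 3128 values with a smallest adjusted p of 0.258. The replicate block (run) gave 0 called precursors in each of these, as did the fits without it; over all genes it called 7 in place of 11 for S40A against WT at 4 h, 8 in place of 11 for S40A against GFP and 10 in place of 12 for WT against GFP, and as many as without it in each 8 h comparison. At an unadjusted p under 0.05 that block gave more genes in each, such as 1267 in place of 712 for S40A against GFP at 8 h. Pair correlations at 8 h were -0.04 to 0.05 in the earlier set and 0.07 to 0.40, all above 0, in the later set. Not every pair passed 0.1, so the 8 h numbers were not taken as pairs. Run B against run A called 2 precursors, but 0 with a minimum mean of 5 FPKM, where 7 members were tested, 4 with no term for the virus, and 0 to 6 on leaving out a library. Run D2 against run D1 called 3, but 5 with the FPKM not scaled further, and 1 to 5 on leaving out a library. Loss of the phosphorylation site in run D1 called 4, but 2 with no filter, 2 with a minimum mean of 5 FPKM, where 7 members were tested, and 2 to 4 on leaving out a library. D1 minus D2 called 2, and 1 to 2 on leaving out a library. Where settings did not change the genes tested or the samples, the cause was not tested. Over all results, 1659 of 1724 values under other settings and 2669 of 2900 on leaving out a library kept their direction and side of the threshold, and 0 reversed. Few fragments limit Crh and Gal.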
